A study of Homo sapiens with 11 samples.

Results

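The 9 genes described here encode brakes on mTORC1, the growth-promoting kinase complex, and on the translation that it drives. They are the sestrins SESN1, SESN2 and SESN3, the stress-induced inhibitor DDIT4 (also called REDD1), the translation repressors EIF4EBP1 and EIF4EBP2, the tuberous sclerosis genes TSC1 and TSC2, and DEPDC5. They were chosen by symbol from a count table of 27671 genes, in which all 9 were found, and all 9 were among the 15591 genes that passed the filter on low counts. Messenger RNA of HEK293T, an established line of human embryonic kidney origin with the large T antigen of SV40, was sequenced in 11 libraries. Cells were given 10 µM A8 with ISRIB (n = 3), 10 µM A8 alone (n = 3), ISRIB in DMSO (n = 2, called ISRIB alone below) or DMSO, the solvent (n = 3). A8 is known here only by its code name, and the series title names the RNA sensor RIG-I as the target and the integrated stress response as the pathway. All groups used the same line, which is called HEK293 in the growth protocol and HEK293T in the sample labels, and the dose of ISRIB is not given in the sources used here. The labels give 8 h of treatment in the titles and 4 h in the treatment protocol, which is not settled here. The submitters' label states that replicate 2 of the ISRIB alone group was excluded for poor quality, and its remaining libraries are called a and b.

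In the integrated stress response, phosphorylation of the initiation factor eIF2 lowers general translation while the transcription factor ATF4 is made and turns on genes of amino acid supply. ISRIB acts on eIF2B, the exchange factor of eIF2, and blunts this response. mTORC1 is switched on at the lysosome by amino acids through the Rag GTPases and by growth factors through RHEB, and its brakes act on both inputs. SESN2 binds leucine and restrains the Rag branch through the GATOR complexes, of which DEPDC5 is a GATOR1 subunit. DDIT4 acts on the growth factor branch through the TSC complex, in which TSC2 is the GTPase-activating subunit for RHEB and TSC1 its stabilising partner. EIF4EBP1 and EIF4EBP2 bind the cap-binding factor eIF4E until mTORC1 phosphorylates them. SESN2 and DDIT4 are known targets of ATF4, EIF4EBP1 is one in mouse pancreatic islets, SESN1 is best known as a p53 target and SESN3 as a FOXO target.

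The promoters of SESN2 and DDIT4 are shown because these are the members whose levels moved most between groups. TSC2, a gene called in no comparison, is shown for the only window searched that held the 2 motifs marked in it below. It is therefore not a neutral contrast, and the other TSC2 window held neither. Each window covers 250 bases before and 50 bases after an annotated RefSeq start site in GRCh38.p14, on the plus strand. The study's own build was GRCh37, so these coordinates belong to the RefSeq table and not to the deposited counts. Capitals mark the CCAAT box in either orientation for SESN2 (chr1:28259268-28259567) and DDIT4 (chr10:72273674-72273973). In TSC2 (chr16:2047735-2048034) they mark an E-box, CACGTG, and the ATF4-C/EBP composite letters TGATGNAA, which overlap.
SESN2: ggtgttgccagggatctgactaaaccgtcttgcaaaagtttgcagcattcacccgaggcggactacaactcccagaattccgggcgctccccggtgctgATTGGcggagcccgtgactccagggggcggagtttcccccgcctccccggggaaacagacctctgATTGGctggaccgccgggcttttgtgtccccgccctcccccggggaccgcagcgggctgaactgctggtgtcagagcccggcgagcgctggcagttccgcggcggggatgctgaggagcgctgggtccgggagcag
DDIT4: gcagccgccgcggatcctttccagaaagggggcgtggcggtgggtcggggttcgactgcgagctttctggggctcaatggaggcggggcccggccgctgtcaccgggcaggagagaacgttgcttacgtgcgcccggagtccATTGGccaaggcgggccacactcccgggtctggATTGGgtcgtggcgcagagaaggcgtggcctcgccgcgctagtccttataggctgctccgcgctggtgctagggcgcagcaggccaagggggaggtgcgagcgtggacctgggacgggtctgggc
TSC2: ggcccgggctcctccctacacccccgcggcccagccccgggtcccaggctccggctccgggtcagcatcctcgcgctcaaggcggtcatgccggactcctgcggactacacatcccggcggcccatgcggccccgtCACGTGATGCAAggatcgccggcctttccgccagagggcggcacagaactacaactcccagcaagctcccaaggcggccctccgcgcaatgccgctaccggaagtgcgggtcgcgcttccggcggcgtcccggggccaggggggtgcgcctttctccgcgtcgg
A CCAAT box was found at -151 and -86 from the start site of SESN2 and at -108 and -75 from that of DDIT4, each time on the reverse strand. It was also found in SESN1, a member called in no comparison, at -90 and -75 in separate windows, so 4 of the 13 windows searched, from 3 of 8 members, held it. The letters CCAAT occurred on either strand in 34.6% of all 35116 RefSeq promoter windows of the same length, so a match is common. The letters TGATGNAA occurred in 3.62% of all windows and in 1 of the 13 windows, at -110 in TSC2. CACGTG, found at -114 in TSC2, occurred in 7.26% of all windows. The letters of the hypoxia response core, ACGTG, which form part of CACGTG, occurred in 21.4% of all windows and at -125 in DDIT4. GGGCGG, the GC box, occurred in 45.0% of all windows and in 11 of the 13, and TATAAA occurred in 11.5% of all windows and in none of the 13. The motifs were chosen after the sequences were read, a match is not a binding site, and the windows leave out introns and distal elements.

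The libraries held 34072107 to 35318111 counts and 17892 to 18017 genes with a count. Chi-square values between replicates were 7.55 to 38.3 times their degrees of freedom, more than counting noise gives, and the library A8 with ISRIB 3 stood apart from its replicates (38.3 and 23.8) and had the lowest scaling factor (0.938, against 0.985 to 1.02 in the other libraries). DMSO 3 also differed more from its replicates (26.2 and 20.8) than these did from each other (9.66). HEK293 lines express VIM and the neurofilament genes NEFL and NEFM. VIM stood at 630 to 755 TMM-scaled CPM (the unit of all levels below, each library's counts divided by its scaled total). NEFL stood at 63.5 to 76.7 and NEFM at 59.8 to 74.3 CPM, well below VIM. Other markers looked up for HEK293 lines were lower, KRT18 at 43.2 to 59.4, KRT8 at 33.1 to 43.6 and INA at 17.4 to 21.7 CPM. PAX2, also on that list, reached only 0.99 to 2.14 CPM. Markers of blood (PTPRC, CD3E), endothelium (PECAM1) and keratinocytes (KRT5) had 0 counts in all 11. CD68 stood at 4.28 to 6.09 CPM and COL3A1 at 0.39 to 1.14 CPM, and ALB had at most 8 counts. The replicates are called biological in the series' design text.

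A8 raised SESN2, and ISRIB given with A8 lowered both SESN2 and DDIT4 relative to A8 alone. EIF4EBP1 had group means in the same order, with smaller differences that did not pass the test. Its libraries of A8 with ISRIB and of DMSO overlapped (-0.02 on the log2 scale), so the order of these groups is not settled. The other 6 genes were called in no comparison. Calls rest on edgeR's quasi-likelihood test with Benjamini-Hochberg adjustment over all 15591 genes, at an adjusted p under 0.05. In A8 against DMSO, 1 of the 9 genes was called, SESN2, as higher, where 0.0834% of all genes tested were called higher, 0.0577% lower and 0.141% in either direction. In A8 with ISRIB against A8, 2 of the 9 were called lower, SESN2 and DDIT4, where 0.16% of all genes were called lower, 0.0192% higher and 0.18% in either direction. By unadjusted p under 0.05, 3 members passed in each of these 2 comparisons, where 10.2% and 5.91% of all genes did. No member was called in ISRIB alone against DMSO, where 0% of all genes were called, in A8 with ISRIB against DMSO (0.0192%), in A8 with ISRIB against ISRIB alone (0.0128%, of which 0.00641% higher and 0.00641% lower), or in the interaction (0.0257%), the difference between the A8 effect with ISRIB and without it. In these 4 comparisons 3, 3, 2 and 2 of the 9 genes had an unadjusted p under 0.05, where 9.58%, 7.7%, 8.32% and 8.48% of all genes had one. DESeq2's Wald test, with Benjamini-Hochberg adjustment over only the genes that passed its own filter, called 2, 0, 0 and 0 members in them, where it called 0.24%, 0.137%, 0.32% and 0.24% of the 21240 genes it gave a p. It called 2 members in A8 against DMSO (0.621% of those genes) and 2 in A8 with ISRIB against A8 (0.25%), SESN2 and DDIT4 each time. DESeq2 gave no adjusted p for 1 of the 9 genes in A8 against DMSO, in ISRIB alone against DMSO and in the interaction. The comparisons share control libraries, so their calls are not independent of each other. In bulk RNA, a change in all cells and a larger change in some of them cannot be told apart.

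**Figure D1:**
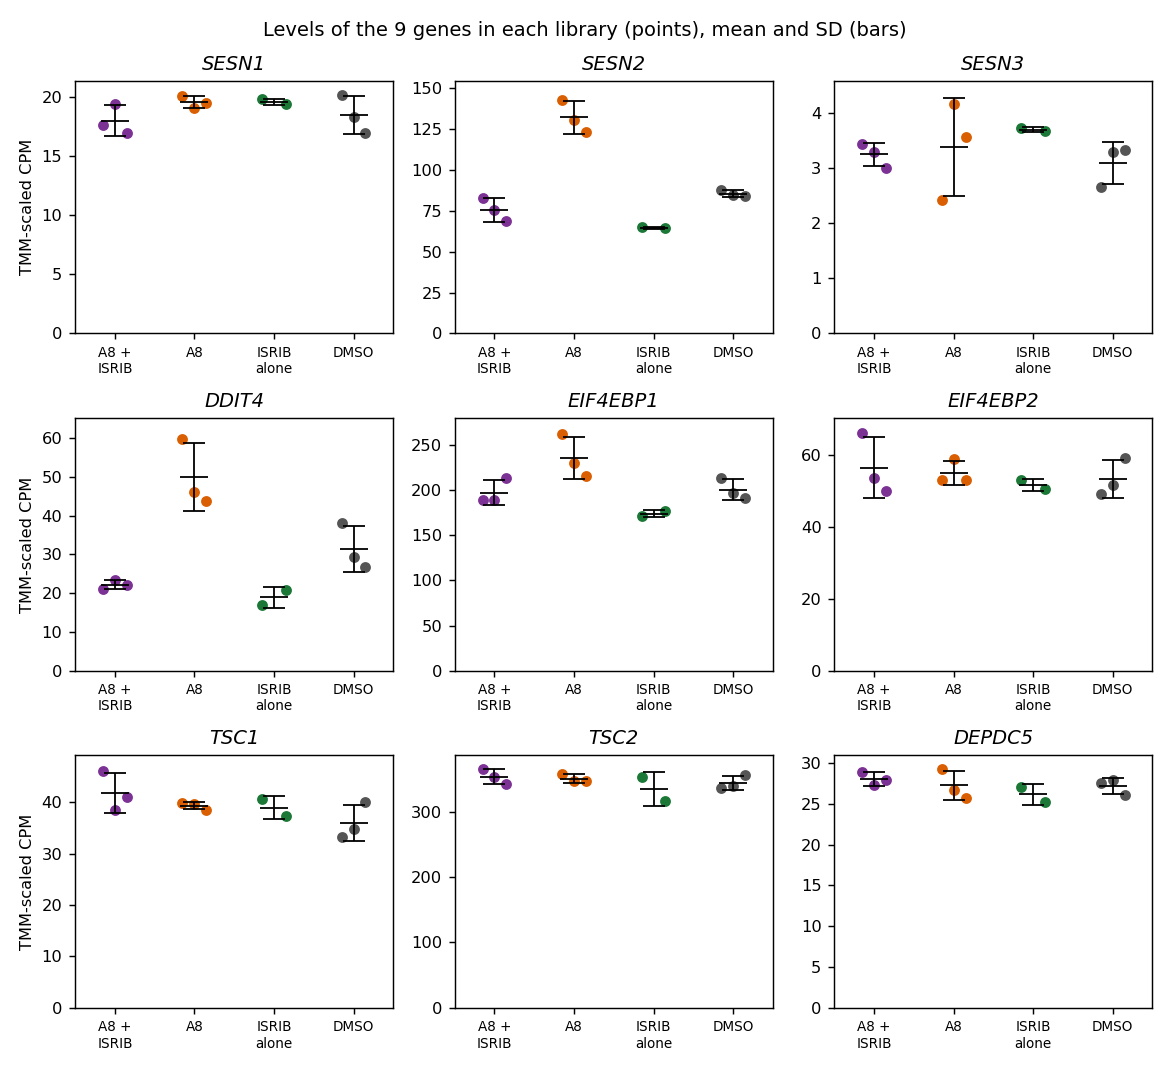
Levels of the 9 genes in each library, as TMM-scaled CPM on axes that start at 0. Points are libraries, and bars give the mean and SD of A8 with ISRIB (n = 3), A8 (n = 3), ISRIB alone (n = 2) and DMSO (n = 3). SESN2 and DDIT4 are highest in the 3 A8 libraries, while TSC2 lies between 316 and 366 in all libraries.

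Per length of the principal transcript, EIF4EBP1 was the most abundant of the brakes in DMSO cells, at 197 ± 11 CPM per kb (SD, n = 3 for each value in DMSO). TSC2 followed at 54.3 ± 1.7 CPM per kb. SESN2, at 24.7 ± 0.7 CPM per kb, and DDIT4, at 18.0 ± 3.4 CPM per kb, came next. EIF4EBP2 stood at 7.35 ± 0.72 and SESN1 at 5.26 ± 0.46 CPM per kb. DEPDC5 (4.20 ± 0.15) and TSC1 (4.14 ± 0.40 CPM per kb) were neighbours that did not differ beyond their spread, and SESN3 was lowest at 0.324 ± 0.040 CPM per kb. With A8, SESN2 per kb stood at 38.3 ± 2.9 and DDIT4 at 28.6 ± 5.0 CPM per kb (SD, n = 3), still below TSC2 at 55.3 ± 1.1 CPM per kb. With A8 and ISRIB, SESN2 stood at 21.9 ± 2.1 and DDIT4 at 12.7 ± 0.7 CPM per kb (SD, n = 3). Transcript lengths came from a later annotation than the counts, so the scale between genes is approximate.

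Among the sestrins, SESN2 was called and the others were not. Its level was 143, 130.4 and 123 CPM in the 3 A8 libraries, against 88.0, 84.4 and 83.9 CPM in the DMSO libraries. Every A8 library lay above every DMSO library, and the lowest A8 value was well clear of the highest DMSO value. SESN2 rose 1.55-fold, which is 0.63 on the log2 scale with an SE of 0.07 and a 95% interval of 0.47 to 0.79 (adjusted p = 0.000292 by edgeR). This was the ninth smallest p among all genes tested, and the fold change lay at percentile 97.7 of theirs. With each library of both groups left out in turn the log2 fold change was 0.57 to 0.68, and SESN2 was called every time. Without DMSO 3 it was 0.62 (adjusted p = 0.00229 by edgeR).

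SESN2 fell in cells given A8 with ISRIB, relative to A8 alone. It stood at 83.1, 75.2 and 68.6 CPM in the A8 with ISRIB libraries, against 143, 130.4 and 123 CPM with A8 alone. The groups did not overlap. The log2 fold change was -0.80 (SE 0.07; adjusted p = 1.65e-05 by edgeR), a level 0.572 times that in A8 alone, and without the library A8 with ISRIB 3 it was -0.74 (adjusted p = 2.79e-05 by edgeR). Against DMSO, every A8 with ISRIB library was lower than every DMSO library, but the log2 fold change of -0.18 (SE 0.07) had an adjusted p of 0.577 by edgeR.

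With ISRIB alone SESN2 stood at 65.0 and 64.2 CPM, against 88.0, 84.4 and 83.9 CPM in DMSO. Both libraries lay under all DMSO libraries. The log2 fold change against DMSO was -0.40 (SE 0.08), and edgeR's adjusted p was 0.237, although SESN2 had the tenth smallest p of all genes in a comparison with no call. Without DMSO 3 it was -0.42 (adjusted p = 0.282 by edgeR). With all libraries, DESeq2's Wald test called SESN2 (adjusted p = 0.00706), and so did edgeR without the filter on low counts (adjusted p = 0.0125, with 0.0659% of all genes called). In the authors' deposited table for ISRIB against DMSO, SESN2 had a log2 fold change of -0.40 and an adjusted p of 0.000223. All A8 with ISRIB libraries lay above those of ISRIB alone, a log2 difference of 0.23 with an SE of 0.08 (edgeR's adjusted p was 0.516). The interaction for SESN2 was -0.40 on the log2 scale (SE 0.11, 95% interval -0.64 to -0.17; adjusted p = 0.366 by edgeR). The smaller A8 effect under ISRIB was therefore not separated from the effect without ISRIB at the adjusted threshold.

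SESN1 and SESN3 were called in no comparison. SESN1 counts were 540 to 706 per library, and its level was 18.0 ± 1.3 CPM with A8 and ISRIB, 19.5 ± 0.5 CPM with A8, 19.6 ± 0.3 CPM with ISRIB alone and 18.5 ± 1.6 CPM in DMSO (SD, n = 3, 3, 2 and 3). In A8 against DMSO the log2 fold change of SESN1 was 0.08 (95% interval -0.11 to 0.27), and in A8 with ISRIB against A8 it was -0.12 (95% interval -0.31 to 0.07). Neither interval holds the SESN2 estimate of the same comparison. SESN3 had only 83 to 149 counts per library, and its interval in A8 against DMSO, -0.26 to 0.52 on the log2 scale, leaves out the SESN2 estimate of 0.63 and overlaps only the lower edge of the SESN2 interval, which began at 0.47. Changes within that interval were not detectable for SESN3 at this depth. SESN3 stood at 2.42, 4.16 and 3.56 CPM with A8, against 2.65, 3.29 and 3.33 CPM in DMSO, and the groups overlapped. It averaged 3.24 ± 0.22 CPM with A8 and ISRIB (n = 3) and 3.69 ± 0.04 CPM with ISRIB alone (n = 2, SD).

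The makeup of the sestrin counts moved with SESN2. SESN2 took 84.2% to 86.4% of all sestrin counts in the A8 libraries, against 79.4% to 80.5% in DMSO. The share was 76.8% to 79.8% in A8 with ISRIB and 73.5% and 73.6% in ISRIB alone. Exact Clopper-Pearson 95% intervals, which cover counting error only, ran from 83.2% to 85.2% for the lowest A8 library and from 79.2% to 81.8% for the highest DMSO library, so they did not touch. Such shares are free of the scaling between libraries. On the same footing, the log2 ratio of SESN2 to SESN1 counts was 2.07 ± 0.15 with A8 and ISRIB, 2.76 ± 0.09 with A8, 1.72 ± 0.01 with ISRIB alone and 2.21 ± 0.09 in DMSO (SD, n = 3, 3, 2 and 3).

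DDIT4 showed the widest range of the 9 genes, with a highest level 3.52 times its lowest. It stood at 59.9, 46.2 and 43.7 CPM with A8, against 38.1, 29.5 and 26.8 CPM in DMSO. The groups did not overlap, but replicate 1 was the highest of both, and the lowest A8 library lay close to the highest DMSO library. The log2 fold change of 0.67 (SE 0.13, 95% interval 0.39 to 0.94) was as large as that of SESN2 with a wider error, and it missed the threshold with an adjusted p of 0.0550 by edgeR. DESeq2's Wald test called DDIT4 (adjusted p = 0.000451), as did edgeR without the filter on low counts (adjusted p = 2.39e-06, with 0.49% of all genes called) and edgeR with the GC trend of each library removed (adjusted p = 0.0122, with 0.282% called). Without DMSO replicate 1 the log2 fold change was 0.83 and edgeR called it (adjusted p = 0.00574), and without DMSO replicate 3 it was 0.56 (adjusted p = 0.128). Over all 6 libraries left out in turn, the log2 fold change was 0.51 to 0.83 and edgeR's adjusted p 0.00574 to 0.291. In the authors' deposited table for A8 against DMSO, DDIT4 had a log2 fold change of 0.66 and an adjusted p of 2.75e-05.

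DDIT4 fell in cells given A8 with ISRIB, relative to A8 alone, with the largest estimate of the 9 genes. It had 21.0, 23.5 and 22.1 CPM in A8 with ISRIB, against 59.9, 46.2 and 43.7 CPM in A8 alone. All 3 libraries with ISRIB lay under the lowest A8 library. The log2 fold change was -1.17 (SE 0.13, 95% interval -1.45 to -0.89; adjusted p = 0.000157 by edgeR), a level 0.445 times that in A8 alone. It was called with any 1 of the 6 libraries left out, at -1.26 to -1.02, and without the library A8 with ISRIB 3 it was -1.17 (adjusted p = 0.000545 by edgeR).

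DDIT4 also lay under DMSO wherever ISRIB was present, without a call in the edgeR test over all libraries. ISRIB alone gave 17.0 and 20.9 CPM, which is -0.73 on the log2 scale against DMSO (SE 0.15; adjusted p = 0.237 by edgeR, 0.00305 by DESeq2). Without DMSO 3 it was -0.83 (adjusted p = 0.184 by edgeR). A8 with ISRIB against DMSO gave -0.50 (SE 0.13; adjusted p = 0.370 by edgeR). That comparison was called by edgeR when the filter on low counts was dropped (0.188% of all genes were then called), and by no other setting run. The authors' deposited tables give -0.73 with an adjusted p of 0.000223 for ISRIB against DMSO, and -0.50 with an adjusted p of 0.0583 for A8 with ISRIB against DMSO. Between A8 with ISRIB and ISRIB alone DDIT4 differed by 0.23 (SE 0.15; adjusted p = 0.723 by edgeR), and its interaction was -0.44 (SE 0.20, 95% interval -0.86 to -0.02; adjusted p = 0.581 by edgeR).

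**Figure D2:**
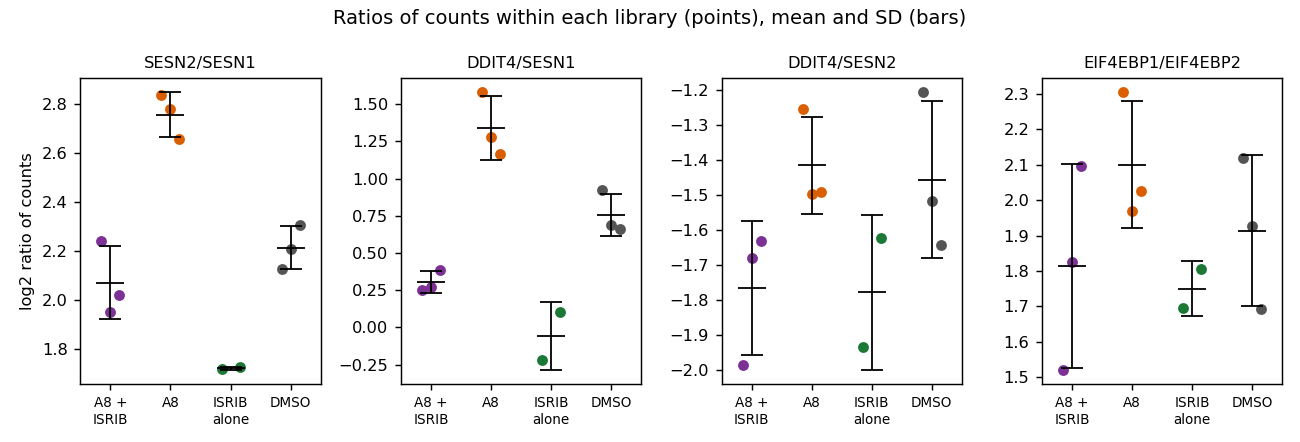
Log2 ratios of counts within each library, which do not depend on the scaling between libraries. Points are libraries and bars give the mean and SD of A8 with ISRIB (n = 3), A8 (n = 3), ISRIB alone (n = 2) and DMSO (n = 3); SESN2/SESN1 and DDIT4/SESN1 are highest in the A8 libraries, while DDIT4/SESN2 and EIF4EBP1/EIF4EBP2 overlap between the A8 and DMSO libraries.

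Within libraries, the log2 ratio of DDIT4 to SESN1 counts was 0.31 ± 0.07 with A8 and ISRIB, 1.34 ± 0.21 with A8, -0.06 ± 0.23 with ISRIB alone and 0.76 ± 0.14 in DMSO (SD, n = 3, 3, 2 and 3). The 3 A8 libraries, at 1.16 to 1.58, lay above the DMSO libraries, at 0.66 to 0.92, and those above the libraries of both groups with ISRIB. The ratio of DDIT4 to SESN2 separated the groups far less. It was -1.77 ± 0.19 with A8 and ISRIB, -1.41 ± 0.14 with A8, -1.78 ± 0.22 with ISRIB alone and -1.46 ± 0.22 in DMSO, and the A8 and DMSO libraries overlapped. The libraries of A8 with ISRIB, at -1.98 to -1.63, lay below those of A8, at -1.50 to -1.25.

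EIF4EBP1, the abundant repressor of eIF4E, had group means in the same order as SESN2 and DDIT4, and no comparison called it. Its level was 262, 230.0 and 216 CPM with A8, against 214, 197 and 191 CPM in DMSO. The groups did not overlap, but the lowest A8 library exceeded the highest DMSO library only slightly. The log2 fold change was 0.24 (SE 0.07; adjusted p = 0.276 by edgeR). With A8 and ISRIB it stood at 189, 190 and 214 CPM, all under the A8 libraries, which is -0.26 on the log2 scale against A8 (SE 0.07; adjusted p = 0.486 by edgeR). ISRIB alone gave 171 and 177 CPM, under all DMSO libraries, at -0.21 (SE 0.08; adjusted p = 0.480 by edgeR). The libraries of A8 with ISRIB overlapped those of DMSO, at -0.02 on the log2 scale, and lay above those of ISRIB alone, at 0.18 (SE 0.08; adjusted p = 0.588 by edgeR). The interaction was -0.05 (95% interval -0.29 to 0.18).

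GC content bears on the EIF4EBP1 values, since its principal transcript is 65.5% GC where the median gene tested is 49.4%, with 59.5% for SESN2 and 58.1% for DDIT4. Fold changes of all genes were related to GC, with a Spearman rho across 14366 genes of -0.29 in A8 against DMSO, 0.15 in A8 with ISRIB against A8 and -0.47 in ISRIB alone against DMSO, given as a description because genes are not independent. With the GC trend of each library removed, EIF4EBP1 was called higher in A8 against DMSO (log2 fold change 0.34, adjusted p = 0.0240 by edgeR) and lower in A8 with ISRIB against A8 (-0.31, adjusted p = 0.0486 by edgeR, with 0.205% of all genes called). In ISRIB alone against DMSO its log2 fold change was then -0.04. With a replicate block added to that correction, its adjusted p by edgeR was 0.149 in A8 against DMSO and 0.279 in A8 with ISRIB against A8. In 2 comparisons SESN2 and DDIT4 moved little with the GC trend removed, to 0.68 and 0.71 in A8 against DMSO and to -0.82 and -1.18 in A8 with ISRIB against A8. The relation to GC was stronger in ISRIB alone against DMSO (rho -0.47), in A8 with ISRIB against ISRIB alone (0.33) and in the interaction (0.45). For these the corrected values of SESN2 and DDIT4 are not given here, so their estimates there may hold part of the GC trend.

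EIF4EBP2, the other repressor of eIF4E described here, was called in no comparison. It stood at 56.5 ± 8.4 CPM with A8 and ISRIB, 55.0 ± 3.3 CPM with A8, 51.7 ± 1.7 CPM with ISRIB alone and 53.3 ± 5.2 CPM in DMSO (SD, n = 3, 3, 2 and 3). In A8 against DMSO its log2 fold change was 0.04 (95% interval -0.16 to 0.24). Its highest level, 65.97 CPM, was in A8 with ISRIB 1 and its next, 59.2 CPM, in DMSO 3, so the spread lay within groups.

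The TSC complex genes were called in no comparison. TSC2 stood at 354 ± 11 CPM with A8 and ISRIB, 351 ± 7 CPM with A8, 335 ± 26 CPM with ISRIB alone and 345 ± 11 CPM in DMSO (SD, n = 3, 3, 2 and 3). Its log2 fold change in A8 against DMSO was 0.03, and the 95% interval of -0.10 to 0.15 is among the narrowest of the 9 genes. TSC1 stood at 41.9 ± 3.9, 39.4 ± 0.7, 39.0 ± 2.3 and 36.1 ± 3.5 CPM in the same order of groups. Its largest difference was between A8 with ISRIB and DMSO, 0.22 on the log2 scale (SE 0.08; adjusted p = 0.557 by edgeR), with overlapping libraries. In the annotation at hand, exons of TSC2 overlap those of NTHL1 and PKD1 on the other strand, and exons of TSC1 those of GFI1B, and whether reads were counted by strand is not given in the sources used here.

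DEPDC5, the GATOR1 subunit, stood at 28.0 ± 0.9 CPM with A8 and ISRIB, 27.3 ± 1.8 CPM with A8, 26.2 ± 1.3 CPM with ISRIB alone and 27.2 ± 1.0 CPM in DMSO (SD, n = 3, 3, 2 and 3). Its log2 fold change in A8 against DMSO was 0.00 (95% interval -0.16 to 0.17). For TSC2 and DEPDC5 the highest level of any library was 1.16 times the lowest.

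**Figure D3:**
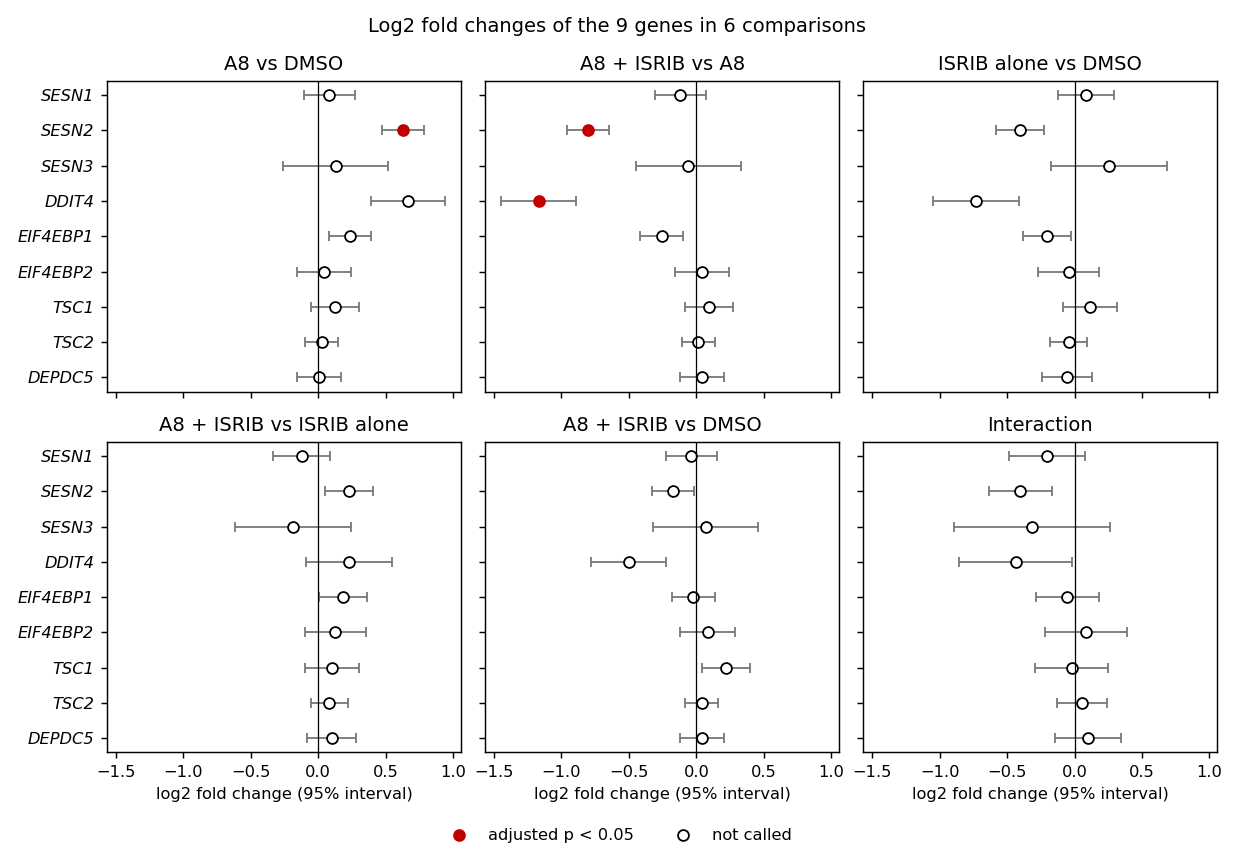
Log2 fold changes of the 9 genes in the 6 comparisons, with 95% intervals from the edgeR fit; filled red points have an adjusted p under 0.05. SESN2 is called in A8 against DMSO and in A8 with ISRIB against A8, DDIT4 in the second of these, and no other gene in any panel.

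Counted without a test, 3 of the 9 genes had all A8 libraries above all DMSO libraries (SESN2, DDIT4 and EIF4EBP1), where 8.47% of all genes tested did, and none below, where 8.13% did. The same 3 genes had all A8 with ISRIB libraries under all A8 libraries, where 5.98% of all genes did, and none lay above, where 5.09% did. Under ISRIB alone they lay below all DMSO libraries, where 15.1% of all genes did, and SESN3 lay above them, where 13.9% did. Between A8 with ISRIB and DMSO, SESN2 and DDIT4 lay below (6.57% of all genes) and no member above (5.79%). Between A8 with ISRIB and ISRIB alone, SESN2, DDIT4, EIF4EBP1 and DEPDC5 lay above (12.8% of all genes) and SESN3 below (12.3%). The median log2 fold change of the 9 genes in A8 against DMSO was 0.13, with all 9 above 0, beside a median of 0.01 for all genes tested. The median was -0.06 in A8 with ISRIB against A8, with 5 of 9 below 0, beside 0.00 for all genes.

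Beyond the 9 genes, edgeR's calls in the mTOR network were 3 amino acid carriers in 1 comparison. Of 73 genes of the core complexes, the nutrient-sensing branch, the AKT and AMPK inputs, the translation and autophagy outputs and the amino acid carriers, edgeR called 0 in A8 against DMSO, where it called 0.141% of all genes. In that comparison 12 of the 73 had an unadjusted p under 0.05, where 10.2% of all genes had one. DESeq2's Wald test called 3 of the 73, where it called 0.621% of the genes it gave a p. They were SLC7A5, SLC38A2 and EIF4B, the last a translation initiation factor. edgeR called 3 of the 73 in A8 with ISRIB against A8, where it called 0.18% of all genes, all 3 lower and plasma membrane carriers of amino acids. DESeq2 called the same 3, where it called 0.25% of the genes it gave a p. In the other 4 comparisons edgeR and DESeq2 called 0 of the 73, where edgeR called at most 0.0257% and DESeq2 at most 0.32% of the genes they tested. There 7 to 9 of the 73 had an unadjusted p under 0.05, where 7.7% to 9.58% of all genes had one. DESeq2 gave no adjusted p for 1 to 11 of the 73 genes, depending on the comparison. The median log2 fold change of the 73 genes was 0.02 in A8 against DMSO and 0.01 in A8 with ISRIB against A8, beside 0.01 and 0.00 for all genes tested.

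Outside the carriers, edgeR called none of the 73 genes in any comparison. The partners of SESN2 and DEPDC5 in the nutrient branch ran from 0.00 to 0.08 for the 3 GATOR1 genes, DEPDC5 included, from -0.06 to 0.07 for the 5 GATOR2 genes and from -0.05 to 0.16 for the 4 KICSTOR genes, which tether GATOR1 to the lysosome, as log2 fold changes in A8 against DMSO. The 12 Rag, Ragulator and folliculin genes ran from -0.17 to 0.21 in the same comparison. RHEB, the GTPase under TSC2 that switches mTORC1 on, averaged 26.3 ± 1.2 CPM with A8 and ISRIB, 25.9 ± 3.6 CPM with A8, 25.7 ± 0.3 CPM with ISRIB alone and 23.2 ± 0.8 CPM in DMSO (SD, n = 3, 3, 2 and 3). In A8 with ISRIB against A8 all 4 KICSTOR genes had log2 fold changes below 0, from -0.22 to -0.08, and all 5 GATOR2 genes above 0, from 0.03 to 0.15, none of them called. The 15 translation and autophagy genes downstream of mTORC1 had a median of 0.03 in A8 against DMSO and -0.02 in A8 with ISRIB against A8.

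The carriers called were SLC7A5, the light chain of the leucine exchanger, SLC3A2, its heavy chain, and SLC1A5, a glutamine carrier. SLC7A5 averaged 207 ± 19 CPM with A8 and ISRIB, against 316 ± 18 CPM with A8 (SD, n = 3 each), which is -0.61 on the log2 scale (SE 0.09; adjusted p = 0.00382 by edgeR). SLC3A2 averaged 177 ± 3 CPM with A8 and ISRIB, against 226 ± 10 CPM with A8 (SD, n = 3 each), at -0.35 (adjusted p = 0.0116 by edgeR). SLC1A5 averaged 248 ± 3 CPM with A8 and ISRIB, against 313 ± 12 CPM with A8 (SD, n = 3 each), at -0.34 (adjusted p = 0.0161 by edgeR). In A8 against DMSO the same carriers had log2 fold changes of 0.45, 0.15 and 0.19, none called. MTOR itself, the kinase, was called in no comparison and averaged 249 ± 30 CPM with A8 and ISRIB, 247 ± 13 CPM with A8, 240 ± 4 CPM with ISRIB alone and 232 ± 15 CPM in DMSO (SD, n = 3, 3, 2 and 3).

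Lists of targets of ATF4, p53 and FOXO, the factors known to induce the brakes, were set beside them. Of 10 other ATF4 targets, 5 were called higher in A8 against DMSO and 5 were called lower in A8 with ISRIB against A8, namely CHAC1, ASNS, PSAT1, CTH and STC2 each time. The median log2 fold change of the 10 was 0.66 in A8 against DMSO and -0.79 in A8 with ISRIB against A8, where SESN2 had 0.63 and -0.80 and DDIT4 0.67 and -1.17. This list is not complete. SLC7A5, SLC38A2, SLC1A5, SLC3A2 and TRIB3, also known as ATF4 targets, were counted in the mTOR lists instead. They had 0.45, 0.47, 0.19, 0.15 and 0.18 in A8 against DMSO, all below the median of the 10 and none called by edgeR. CHAC1 averaged 4.11 ± 0.22 CPM with A8 and ISRIB, 17.0 ± 3.7 CPM with A8, 2.67 ± 0.46 CPM with ISRIB alone and 5.22 ± 0.51 CPM in DMSO (SD, n = 3, 3, 2 and 3), the order of groups seen for SESN2 and DDIT4. CHAC1, which degrades glutathione, had the largest fold change of the list, 1.70 (SE 0.15; adjusted p = 3.67e-05 by edgeR), and ASNS, asparagine synthetase, had 0.70 (SE 0.07; adjusted p = 4.46e-05 by edgeR). In ISRIB alone against DMSO all 10 had log2 fold changes below 0, with a median of -0.22 and 0 called by edgeR (6 at an unadjusted p under 0.05, and 1, STC2, by DESeq2), where SESN2 had -0.40 and DDIT4 -0.73. Of all genes 9.58% had such a p in that comparison, and DESeq2 called 0.24% of those it gave a p. PSAT1, an enzyme of serine synthesis, was the only one of the 10 that edgeR called in the interaction, at -0.62 (SE 0.09, adjusted p = 0.0243 by edgeR), where DESeq2 called 4. With the GC trend removed edgeR called 0 genes of all those tested in the interaction. It also called 0 without A8 with ISRIB 1 or 2, without A8 1 or 2, and without DMSO 2. The PSAT1 call was therefore lost under these alternatives. Of 6 p53 targets and 5 FOXO targets edgeR and DESeq2 called 0 in every comparison, though DESeq2 gave no adjusted p for up to 5 of the p53 targets and 3 of the FOXO targets, with at most 2 of the p53 targets and 1 of the FOXO targets at an unadjusted p under 0.05 in edgeR. Since edgeR called at most 0.18% of all genes in any comparison, a count of 0 in lists of this size is near the background, and nothing is read from it. CDKN1A, the p53-induced cell cycle inhibitor, had a log2 fold change of -0.35 in A8 against DMSO (adjusted p = 0.426 by edgeR). These lists were chosen with results of these data known, so their direction is not independent evidence.

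**Figure D4:**
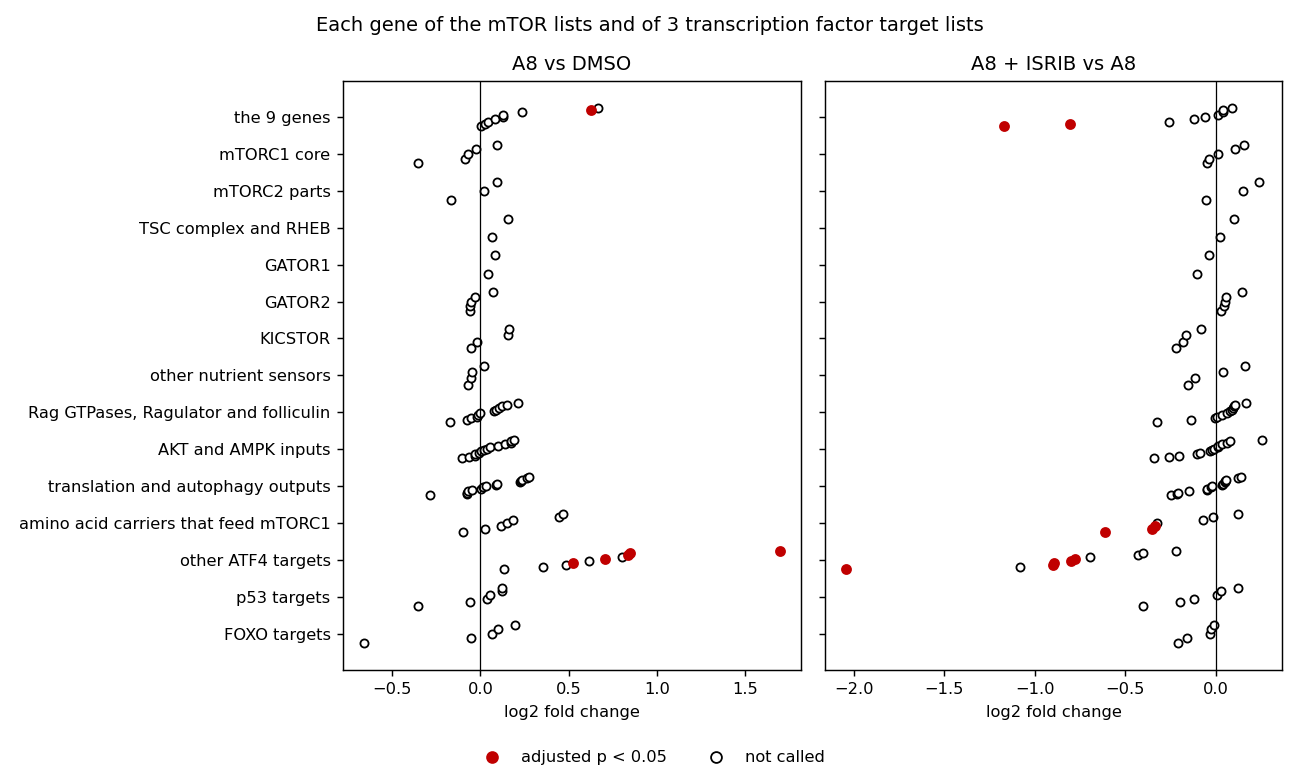
Log2 fold changes of each gene of the mTOR lists and of the ATF4, p53 and FOXO target lists in A8 against DMSO and in A8 with ISRIB against A8; each point is 1 gene, and filled red points have an adjusted p under 0.05 by edgeR. The called points lie in the rows of the 9 genes, the amino acid carriers and the other ATF4 targets, and no point is called in the remaining rows.

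Across all 11 libraries, the genes whose log2 level followed each brake most closely were listed by Pearson's r, with 10899 genes searched whose mean log2 CPM reached 2. For SESN2 they were CHAC1 (r = 0.98), STC2 (0.98) and YARS (0.98), and for DDIT4 CHAC1 (0.96), GPT2 (0.95) and SLC3A2 (0.95). For EIF4EBP1 they were SLC43A1 (0.94), ATF4 (0.94) and DDIT3 (0.93). SESN2 and DDIT4 correlated at 0.94 with each other, and EIF4EBP1 at 0.85 with SESN2 and 0.90 with DDIT4. The closest genes to SESN1 were SFI1 (0.93), RCN2 (0.90) and C9orf78 (0.83), and to SESN3 PLAA (0.95), MGAT5 (0.92) and GEN1 (0.92). EIF4EBP2 was followed by GATAD2B (0.96), CRIM1 (0.94) and PPP1R15B (0.94), TSC1 by CPS1 (0.94), REPS1 (0.91) and SEMA3C (0.89), TSC2 by MMD (0.97), SREBF2 (0.90) and ITFG3 (0.89), and DEPDC5 by FAM127A (0.86), STYXL1 (0.85) and MAN1B1 (0.85). Among the members not called, EIF4EBP2 and TSC1 correlated at 0.73. These values describe 11 libraries that fall into 4 treatment groups, and members called in no comparison also had close neighbours at r of 0.86 or more.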

How the data were processed

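Counts were analysed for 11 libraries of HEK293T cells in 4 groups given by the labels. The deposited table gives raw counts, whole numbers for each gene symbol. Per the submitters' processing notes the build was GRCh37 and the tools DESeq and DESeq2; the sources used here name no aligner, counting program or strand setting. The authors also deposited 3 result tables with log2 fold changes, p-values, base means (a signal of normalized counts) and a test statistic (a score, not used here), per the file headers. Which libraries entered those fits is not known.

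Libraries were dUTP strand-marked, per the labels' protocols. Genes were filtered with filterByExpr, scaled by TMM and tested on the deposited counts in 1 quasi-likelihood fit of group means over all 11 libraries (edgeR 4.0.16, R 4.3.3), with Benjamini-Hochberg adjustment over 15591 genes and calls at an adjusted p under 0.05. Standard errors come from the F statistic. The fit was run on simulated counts that had the same spread setting for every gene. They held no outlying library and no GC trend, so the run does not show how the fit handles these. Levels are TMM-scaled CPM, as mean ± SD. GC content and lengths are those of GENCODE v29 principal transcripts, and 92.1% of genes tested had a GC value. Depth was 34072107 to 35318111 counts, and intervals of shares cover counting error only. The ISRIB alone columns carry numbers that differ from the titles, so these libraries were assigned to the group only.

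The members and lists were chosen with earlier results of these data known. The genes named are the 9 members, list genes called in a comparison (up to 4 in each comparison, by smallest p), and for each member the 3 genes closest by Pearson's r. CTH, SLC7A5, SLC1A5, MTOR, RHEB, CDKN1A, SLC38A2, EIF4B, TRIB3, the overlapping genes NTHL1, PKD1 and GFI1B, and the markers were named outside this rule, after their values were seen. Alternatives were the Wald test of DESeq2 1.42.0, its size factors in place of TMM, dropping the filter, a minimum of 50 counts in all, only the groups compared, a replicate block, GC offsets, and each library left out in turn.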

Additional observations from a re-analysis of the deposited data

How the results depend on the processing

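SESN2 in A8 against DMSO, and SESN2 and DDIT4 in A8 with ISRIB against A8, kept their direction and their call under each alternative run. The number of members called in A8 against DMSO was 1, and it was 2 under DESeq2's Wald test, without the filter on low counts, and with the replicate block and GC trend together (DDIT4 added each time), and 3 with the GC trend removed (DDIT4 and EIF4EBP1 added). With 1 library left out it was 1 to 2, and 2 only without DMSO 1. Of all genes, 0.621% were called under DESeq2's Wald test, 0.49% without the filter and 0.282% with the GC trend removed. With the replicate block and GC trend together, 12 of 15233 genes were called higher and 4 lower. Without DMSO 1, 13 of 15522 were called higher and 7 lower. In ISRIB alone against DMSO the number of members called was 0, and 2 under DESeq2's Wald test and without the filter (SESN2 and DDIT4). In A8 with ISRIB against DMSO it was 0, and 1 without the filter (DDIT4). It was 2 in A8 with ISRIB against A8, and 3 with the GC trend removed (EIF4EBP1 added). In the interaction and in A8 with ISRIB against ISRIB alone it was 0 under each alternative run. The cause of these changes was not tested. The adjusted p of SESN2 in A8 against DMSO ran from 4.17e-12 to 0.00625 over all alternatives.

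The fold changes that reversed belonged to comparisons in which the gene was not called. With the GC trend removed, the log2 fold change was 0.0583 for TSC2 in ISRIB alone against DMSO, 0.0256 for EIF4EBP1 in A8 with ISRIB against DMSO, and -0.00952 for TSC2 in A8 with ISRIB against A8. The interaction was then 0.0150 for TSC1 and -0.0678 for TSC2. With the replicate block and GC trend together EIF4EBP1 had 0.0250 in A8 with ISRIB against DMSO and TSC2 had -0.00897 in A8 with ISRIB against A8.

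With 1 library left out, signs turned within these ranges. In A8 against DMSO the range was -0.0490 to 0.320 for SESN3, -0.0112 to 0.124 for EIF4EBP2 and -0.0497 to 0.0444 for DEPDC5. In ISRIB alone against DMSO it was -0.0985 to 0.0371 for EIF4EBP2 and -0.122 to 0.0342 for TSC2. In A8 with ISRIB against DMSO it was -0.0972 to 0.0279 for SESN1, -0.0311 to 0.126 for SESN3, -0.0800 to 0.0231 for EIF4EBP1 and -0.0446 to 0.165 for EIF4EBP2. In A8 with ISRIB against ISRIB alone it was -0.000481 to 0.208 for EIF4EBP2. In A8 with ISRIB against A8 it was -0.251 to 0.118 for SESN3, -0.0877 to 0.120 for EIF4EBP2, -0.0106 to 0.0356 for TSC2 and -0.000950 to 0.0942 for DEPDC5. In the interaction it was -0.117 to 0.0286 for EIF4EBP1, -0.0436 to 0.163 for EIF4EBP2, -0.104 to 0.0351 for TSC1 and -0.0215 to 0.132 for TSC2.

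Same-numbered libraries of different groups had correlations of their deviations from -0.50 to 0.42 over 9 pairs, and differently numbered ones from -0.46 to 0.50, so the numbers were not taken to pair the libraries. With a replicate block, 1 member was called in A8 against DMSO, 0 in A8 with ISRIB against DMSO and 2 in A8 with ISRIB against A8, as without it. No block could be fitted for comparisons with ISRIB alone. Over all genes, the calls in A8 against DMSO were 13 higher and 9 lower, and 63 and 69 under DESeq2's Wald test, 59 and 45 without the filter, and 28 and 16 with the GC trend removed. The calls in A8 with ISRIB against A8 were 3 higher and 25 lower, and 15 and 38 under DESeq2's Wald test, 13 and 41 without the filter, and 2 and 13 with the block. In ISRIB alone against DMSO they were 0 and 0, and 5 and 46 under DESeq2's Wald test and 3 and 11 without the filter. SESN3, at 83 to 149 counts, is the member that depth limits most, and ISRIB alone rests on 2 libraries.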
